A study of Mus musculus with 6 samples.

Results

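Naive CD4+ T cells that had been stimulated for 48 h were compared with the same kind of cells at 6 h, in wild-type (WT) and in Zak-deficient mice. The comparison used 4 of the 6 RNA sequencing libraries of the study, the WT and Zak-KO libraries of 6 h and the WT and Zak-KO libraries of 48 h, so that each genotype formed 1 pair. The 2 libraries of 0 h served to say whether a gene had already changed by 6 h. The cells were naive CD4+ T cells, sorted by flow cytometry on surface markers of the naive state. They came from the spleens and lymph nodes of C57BL/6 mice aged 6 to 8 weeks. Those of 6 h and 48 h were cultured with anti-CD3 and anti-CD28 antibodies. These antibodies substitute for the antigen signal through the T cell receptor (TCR) and for costimulation. The genotype is labelled Zak-/-, while the culture protocol describes conditional loss in T cells, and which of these applies is unsettled. Each of the 6 groups had 1 library, and the labels do not say how many mice each one came from.

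Values are in FPKM, a unit that divides fragments by transcript length and by the mapped fragments of the library. Differences are 48 h minus 6 h in log2(FPKM+1), so that changes of low genes are understated. Where a pair of values is given, WT comes first and Zak-KO next. The deposited values covered 18446 genes, summed to between 496045 and 546113 per library and held between 1777 and 2793 genes at 0, the fewest in Zak-KO at 48 h and the most in WT at 48 h; the number of reads behind them is unknown. Map3k20 (chromosome 2, 72285637 to 72442610, mm10), the gene of the kinase ZAK, checked the labels first. Its WT values were 0.17, 0.19 and 1.35 FPKM at 0, 6 and 48 h, and its Zak-KO values were 0.10, 0.10 and 1.61. Its level did not separate the genotypes at 48 h, so WT and Zak-KO below mean the libraries labelled so, and every direction between them rests on that label.

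T cells that receive both signals leave the resting state in steps. Transcription factors and cytokine genes that need no new protein come first, cell growth follows with the synthesis of ribosomes, amino acids and lipids, and DNA replication and division come after about a day. Inhibitors induced by the same signals then restrain the TCR, MAP kinase and NF-kB pathways, while genes that hold the naive cell in circulation and at rest are switched off.

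Among the 10347 genes that averaged at least 1 FPKM over the 6 libraries, 854 were higher at 48 h than at 6 h (8.25%) and 467 were lower (4.51%). A gene was called when it differed by 2-fold or more in the same direction in both genotype pairs and had an adjusted p under 0.05 with limma and Benjamini-Hochberg adjustment. In the text, a gene rose or fell only if it was called. Counts within the gene lists below are to be read against these shares over all genes, 8.25% higher and 4.51% lower. In that fit the error is the disagreement between the WT and Zak-KO pairs, pooled over genes, because no genotype has a replicate. The p-values therefore weigh the size of a change against that disagreement only, and not against a spread between replicates. The p-value decided little, since 5415 genes (52.3%) passed it and every gene that passed the 2-fold rule in both pairs was among them. The genes nearest the 2-fold threshold were Nicn1 just inside (1.0 in WT and 1.2 in Zak-KO) and Etfa just outside (0.996 and 1.03) for higher genes, and Pcsk1 inside (-1.0 and -1.1) and Dennd4a outside (-1.06 and -0.998) for lower ones. Those nearest the filter were Igf2bp3 inside, with a mean of 1.0 FPKM, and Mcc outside, with 0.993. Among the 152 called genes that the naming rule picked, the limma SE ran from 0.080 to 0.21 and the adjusted p (limma, Benjamini-Hochberg) was at most 0.00274. Of the genes picked by that rule and named below, Zbtb32, Jun, Ikzf4, Cd40lg, Cxcr3, Chac1, Ddit3, Rrp9, Pmaip1 and Isg20 lost the call with a pseudocount of 5 FPKM, and Jun and Rrp9 after median ratio scaling. Without the filter on low values, where the p-value was the part that failed, Kdm6b, Zbtb32, Fosl2, Jun, Nr4a2, Ikzf4, Lta, Ltb, Lag3, Jak3, Grap2, Lgals1, Ikzf3, Chac1, Rrp9 and Pmaip1 lost it. For a single gene, an exact permutation of 2 libraries against 2 cannot give a p below 0.333. In bulk RNA, fewer cells of a type and less RNA per cell cannot be told apart.

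Both pairs moved alike for most genes. In the WT pair alone 964 genes were 2-fold higher and 636 lower, and in the Zak-KO pair alone 1121 and 678. Across the 10347 genes, which are not independent replicates, the 2 sets of differences correlated at 0.90 (Pearson's r). The median gene moved by amounts that lay 0.17 apart on the log2 scale in the 2 pairs. For the called genes the median was 0.15, but the call itself asks for agreement of the pairs, so this value is no separate evidence.

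**Figure D1:**
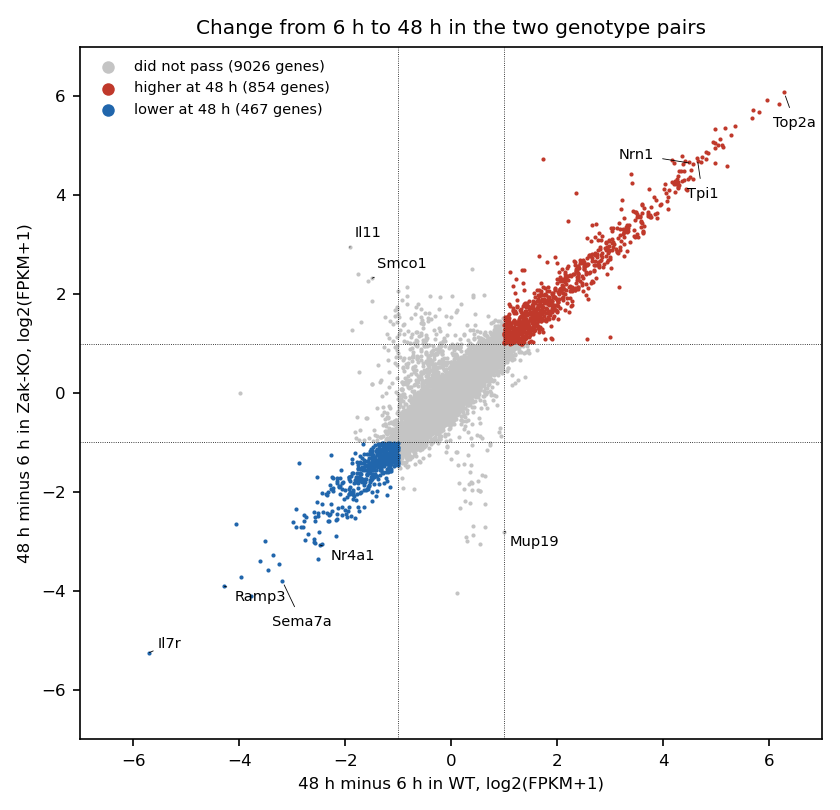
Change from 6 h to 48 h of each of the 10347 genes in WT (horizontal axis) and in Zak-KO (vertical axis), both as log2(FPKM+1) differences; red points are the 854 genes called higher, blue points the 467 called lower, and dotted lines mark 2-fold. The called genes lie along the diagonal, which the call favours because it asks for the same direction in both pairs. Top2a is at the upper right and Il7r at the lower left, while Il11, Smco1 and Mup19 moved in opposite directions in the 2 pairs.

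The genes were next divided by what they had done between 0 h and 6 h. At 6 h, 791 genes (7.64%) were at least 2-fold above their 0 h level in both genotypes, here called early higher genes, and 53 (0.512%) were at least 2-fold below it. Of the early higher genes, 611 stayed within 2-fold of their 6 h level at 48 h in both genotypes, 66 fell back by 2-fold or more, 62 rose by a further 2-fold or more and 52 did not do the same in both. Taken as a whole they sat slightly lower at 48 h, with a median difference of -0.10 in WT and -0.15 in Zak-KO, and 599 were still at least 2-fold above 0 h in both genotypes. Of the 611 that stayed near their 6 h level, 483 were still so, and 86 lay within 2-fold of 0 h in both genotypes. A further 750 genes were higher only late, between 6 h and 48 h, and 296 were lower only late. The 6 h libraries enter both differences, so the differences are not independent of each other and these classes are counts with no test.

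**Figure D2:**
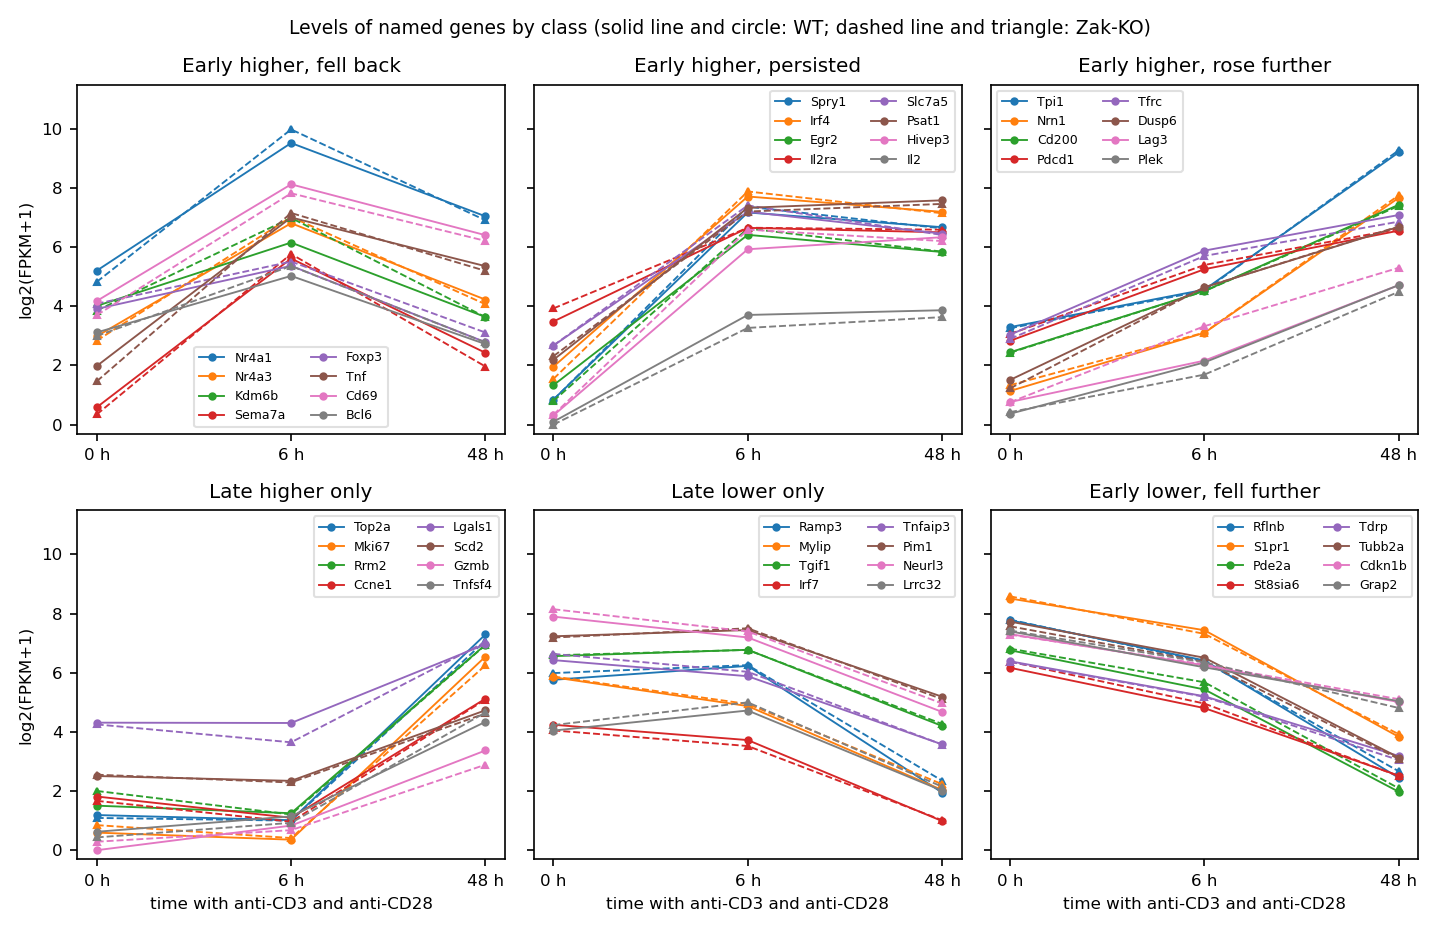
Levels of 8 example genes in each of 6 classes at 0, 6 and 48 h, as log2(FPKM+1); each symbol is 1 library, with circles and solid lines for WT and triangles and dashed lines for Zak-KO. The WT and Zak-KO lines of a gene run close together, with a wider gap for Lag3 at 6 h (3.48 and 9.04 FPKM).

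The 66 early genes that fell back included surface molecules, transcription factors and a chromatin enzyme, and 41 of them returned to within 2-fold of their 0 h level in both genotypes. Sema7a, a membrane-bound semaphorin, stood at 48 FPKM in WT and 53.5 in Zak-KO at 6 h and at 4.38 and 2.9 at 48 h, from 0.50 and 0.27 at 0 h, a difference of -3.50 ± 0.17 (log2 mean of the 2 pairs ± limma SE). Ccr8, a chemokine receptor of skin-homing and regulatory T cells, stood at 13.1 FPKM in WT and 18.7 in Zak-KO at 6 h and at 1.32 and 1.45 at 48 h (-2.80 ± 0.15). Kdm6b, a demethylase of histone H3 lysine residues, stood at 70.3 FPKM in WT and 126 in Zak-KO at 6 h and at 11.5 and 11.4 at 48 h (-2.52 in WT and -3.36 in Zak-KO). In these 3 genes both 6 h libraries lay above both 48 h libraries. The 48 h libraries of the genotypes lay close together for Ccr8 and Kdm6b and farther apart for Sema7a.

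The 3 Nr4a genes, which encode orphan nuclear receptors induced within an hour of TCR engagement and used as reporters of its strength, fell together. Nr4a1 (chromosome 15, 101253902 to 101274795, mm10) was the highest, at 734 FPKM in WT and 1010.0 in Zak-KO at 6 h and at 131 and 119 at 48 h, from 35.9 and 27.4 at 0 h (-2.78 ± 0.16, adjusted p = 0.000346 with limma and Benjamini-Hochberg adjustment). Nr4a3 was at 111 and 129 FPKM at 6 h and 17.7 and 15.8 at 48 h in WT and Zak-KO, and Nr4a2 was at 66.6 and 76.4 FPKM at 6 h and 17.2 and 12.8 at 48 h. At 48 h each was still above its 0 h level in both genotypes, Nr4a1 by 1.84 and 2.08 on the log2 scale.

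In the list of 37 tested immediate early and TCR-induced transcription factors, 11 fell and 1 rose, with a median difference of -0.52 in WT and -0.80 in Zak-KO. Over all genes the medians were -0.03 and 0.02. Besides the Nr4a genes, the fallers included Fos, part of the dimeric factor AP-1 (23.1 and 29.7 FPKM at 6 h and 7.48 and 8.05 at 48 h), Atf3, a stress-induced repressor (16.2 and 14.7 FPKM at 6 h and 2.86 and 1.88 at 48 h), and Jun, the partner of Fos (8.61 and 10.6 FPKM at 6 h and 3.65 and 3.56 at 48 h). Fosl2, Relb, Crem, Tgif1 and Ikzf4 had not changed 2-fold in both genotypes by 6 h and were lower only late. Tgif1, a repressor of TGF-beta signals, stood at 109 FPKM in WT and 108 in Zak-KO at 6 h and at 17.4 and 18.3 at 48 h, after 93.5 and 95.4 at 0 h.

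Other transcription factors of the same list stayed within 2-fold of their 6 h level. Over the whole list, with the 11 that fell included, 25 of the 37 lay below their 6 h level in both genotypes. Irf4, which sets the extent of T cell expansion, was at 209 FPKM in WT and 235 in Zak-KO at 6 h and at 145 and 141 at 48 h, from 2.89 and 1.92 at 0 h, and Egr2, a zinc-finger factor of the TCR response, was at 84.4 FPKM in WT and 98.2 in Zak-KO at 6 h and at 56.1 and 56.6 at 48 h, from 1.52 and 0.74. Egr3, its close relative, was at 42 and 47.7 FPKM at 6 h and 59.8 and 61.8 at 48 h. Nfatc1, an amplifier of calcineurin signals, was at 104 and 138 FPKM at 6 h and 102 and 108 at 48 h. Hivep3 was at 60 and 95.5 FPKM at 6 h and 79.8 and 72.9 at 48 h with values that overlapped between the times. In all, 11 of the list's genes persisted. Egr1 lay at the edge of the rule, with -0.86 in WT and -1.14 in Zak-KO, as did Myc, the driver of cell growth, with -0.75 and -1.08 (166 and 185 FPKM at 6 h and 98.8 and 87 at 48 h). Zbtb32, a repressor that restrains lymphocyte responses, was the 1 member that rose, from 0.71 and 0.82 to 4.11 and 3.43 FPKM.

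Genes listed as inhibitors of signalling split in a similar way. Of 39 tested genes listed as feedback inhibitors of TCR, MAP kinase, NF-kB and cytokine signals, 12 fell (30.8%) and 4 rose (10.3%). The medians were -0.52 in WT and -0.73 in Zak-KO. The list also held genes that are not such inhibitors, among them Pim1, Pim2, Pim3, Pfkfb3 and Gadd45b. The phosphatase gene Dusp5 fell back from 55.9 and 96.9 FPKM to 11.6 and 12.3, while Dusp6, which removes phosphate from ERK, was early higher and rose again (23.9 and 24 FPKM at 6 h and 102 and 103 at 48 h, 2.05 ± 0.081). The NF-kB inhibitors Tnfaip3 (58 and 64.4 FPKM at 6 h and 10.9 and 10.9 at 48 h) and Nfkbia (204 and 184 FPKM at 6 h and 77.1 and 79.9 at 48 h) fell only late, as did the kinase Pim1 (173 and 180.4 FPKM at 6 h and 35.5 and 33.5 at 48 h), and its relative Pim2 rose (22.4 and 18.7 FPKM at 6 h and 61.6 and 60.9 at 48 h). Spry1, an inhibitor of the Ras and ERK pathway, persisted at 143 and 164 FPKM at 6 h and 101 and 98.5 at 48 h after 0.80 and 0.79 at 0 h. Gadd45b, a stress sensor upstream of p38, fell from 59.3 and 58.5 FPKM to 5.33 and 4.39, below its 0 h values of 34.1 and 23. Dusp5, Nfkbia and Pim2 were chosen after their values were seen.

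Among 13 tested cytokine and chemokine genes, 3 fell and 0 rose by the limma rule, and 1 was above its 6 h value at an unadjusted p under 0.05 with no rule of size. Tnf was at 127 and 142 FPKM at 6 h and 40 and 35.7 at 48 h, from 2.95 and 1.76 at 0 h, and Lta, its neighbour and relative, was at 88.4 and 93 FPKM at 6 h and 30.7 and 19.8 at 48 h. Ltb, which forms a membrane complex with Lta, fell only late (433 and 521 FPKM at 6 h and 191 and 184 at 48 h). Il2, the T cell growth factor, persisted at 12.1 and 8.65 FPKM at 6 h and 13.6 and 11.4 at 48 h from 0.07 and 0 at 0 h, a difference of 0.26 ± 0.11 with an adjusted p of 0.101 (limma, Benjamini-Hochberg). The chemokine genes Ccl3 (4.04 and 3.37 FPKM at 6 h and 7.52 and 6.01 at 48 h) and Ccl4 (19.6 and 18.7 FPKM at 6 h and 18.1 and 13.1 at 48 h) also persisted, and Ifng, Il4, Il17a and Il21 were under the filter of 1 FPKM.

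Ligands and receptors of the TNF family gave 6 falls (35.3%) and 2 rises (11.8%) among 17 tested genes. The shares over all genes were 4.51% and 8.25%. The costimulatory receptor Tnfrsf9 (4-1BB) fell from 285 and 307 FPKM to 101 and 106, and the death ligand Fasl from 28.7 and 29.6 to 9.28 and 7.8. Cd40lg, the helper signal to B cells, fell from 148 and 125 to 66 and 61 (-1.09 ± 0.085). Tnfsf4, the OX40 ligand, went the other way, from 1.21 and 0.90 to 19.3 and 24.2 FPKM (3.46 ± 0.17), having been 0.54 and 0.35 at 0 h. Its receptor gene Tnfrsf4 was at 112 and 106 FPKM at 6 h and 145 and 127 at 48 h and was not called.

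Of 29 tested surface receptors of activated T cells 9 rose and 3 fell (median 0.48 in WT and 0.38 in Zak-KO). Cd69, the early activation marker that retains cells in the lymph node, fell back from 278 and 225 FPKM to 83.8 and 73.1 (-1.66 ± 0.084). Il2ra, the high-affinity IL-2 receptor subunit, stayed at 99.7 and 100 FPKM at 6 h and 89.6 and 95.4 at 48 h, and Icos, a costimulatory receptor, at 66.3 and 66.6 FPKM at 6 h and 55 and 54.8 at 48 h. The inhibitory receptor Pdcd1 (PD-1) was early higher and rose again to 93.3 and 97.2 FPKM, after 6.13 and 7.38 at 0 h and 37.2 and 41.2 at 6 h. Lag3, another inhibitory receptor, rose from 3.48 and 9.04 to 25.3 and 38.5, with the larger value in Zak-KO at both times.

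Further genes rose at both steps. The transferrin receptor Tfrc, which imports iron, was at 58 and 51.1 FPKM at 6 h and 135 and 115 at 48 h, the inhibitory ligand Cd200 at 21.9 and 21.8 FPKM at 6 h and 172 and 167 at 48 h and Btla, an inhibitory receptor of the CD28 family, at 67.9 and 67.7 FPKM at 6 h and 208 and 215 at 48 h. Nrn1, which encodes the small membrane-anchored protein neuritin, went from 1.2 and 1.52 FPKM at 0 h through 7.6 and 7.65 at 6 h to 203 and 215 at 48 h. Its late step of 4.60 ± 0.084 was larger than its early one of 1.97 in WT and 1.78 in Zak-KO. The IL-12 receptor chain Il12rb1 (2.03 and 2.21 FPKM at 6 h and 18.1 and 14.4 at 48 h) and the E-protein inhibitor Id3 (31.2 and 38.9 FPKM at 6 h and 81.6 and 108 at 48 h) were others of the 62 genes in this class. Ctla4 was at 47.9 and 47.7 FPKM at 6 h and 70.4 and 61.2 at 48 h and was not called.

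Foxp3 and Bcl6, lineage factors of regulatory and follicular helper T cells, were both early higher and fell below their 0 h levels. Foxp3 stood at 40.3 FPKM in WT and 44.7 in Zak-KO at 6 h and at 5.9 and 7.65 at 48 h, from 14.1 and 16 at 0 h (-2.49 ± 0.10, adjusted p = 0.000148 with limma and Benjamini-Hochberg adjustment). Bcl6 stood at 31.6 FPKM in WT and 40.2 in Zak-KO at 6 h and at 5.6 and 5.88 at 48 h, from 7.67 and 6.98 (-2.44 ± 0.11). Neither had a 48 h value above its 0 h value in the same genotype. Among 27 tested genes of helper lineages and effector function 7 rose (25.9%) and 4 fell (14.8%), against 8.25% and 4.51% over all genes. The galectin gene Lgals1 rose from 18.7 and 11.5 to 124 and 131 FPKM, the annexin gene Anxa2 from 5.0 and 4.18 to 34.6 and 44.5, and Gzmb, the cytotoxic protease granzyme B, from 0.78 and 0.60 to 9.36 and 6.42. Ikzf3, the zinc-finger factor Aiolos, fell from 42.3 and 61.1 to 10 and 9.98.

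Most aminoacyl-tRNA synthetase and ribosome biogenesis genes were early higher and then stayed within 2-fold of their 6 h level, many of them below it. Of 19 tested aminoacyl-tRNA synthetase genes 17 were early higher and persisted. By limma with Benjamini-Hochberg adjustment and the 2-fold rule 0 were called, and at an unadjusted p under 0.05 with no rule of size 3 were above and 10 below their 6 h value. Of 60 tested ribosome biogenesis genes 47 persisted, 1 fell and 0 rose by the limma rule. At an unadjusted p under 0.05 with no rule of size 41 were below and 2 above, and 52 were below their 6 h value in both genotypes (median -0.33 in WT and -0.42 in Zak-KO). The 1 that fell was Rrp9, a component of the U3 particle that cuts ribosomal RNA precursors (86.7 and 101 FPKM at 6 h and 42.1 and 38.1 at 48 h). Gar1, a partner of the pseudouridine synthase complex, was at 71.5 and 67 FPKM at 6 h and 74.4 and 70.7 at 48 h from 9.17 and 9.77 at 0 h. Of the 52 tested genes of cytosolic ribosomal proteins, 51 had no 2-fold change at either step and 0 were early higher and persisted. Their medians were -0.05 in WT and 0.16 in Zak-KO, signs that differed between the genotypes. By the limma rule 0 of them were called, with 7 above and 4 below at an unadjusted p under 0.05.

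Amino acid supply behaved similarly. Of 26 tested genes linked to the stress factor ATF4 and to amino acid synthesis, 17 persisted, 3 rose (11.5%) and 3 fell (11.5%). The shares over all genes were 8.25% for rises and 4.51% for falls. Psat1, a serine synthesis enzyme, was at 160.1 and 146 FPKM at 6 h and 191 and 175 at 48 h from 3.57 and 3.97 at 0 h. The transporter Slc7a5, which carries large neutral amino acids, was at 146 and 169 FPKM at 6 h and 86.9 and 84.2 at 48 h, with -0.74 in WT and -0.999 in Zak-KO just short of the 2-fold rule. The risers were Ddit4, Stc2 and Got2. Ddit4 was at 18.5 and 21.5 FPKM at 6 h and 71.3 and 79.3 at 48 h. Stc2 was at 0.41 and 0.50 FPKM at 6 h and 7.39 and 4.64 at 48 h. The fallers were Ddit3, Trib3 and Chac1. Ddit3, a death-promoting factor, was at 56.4 and 51.7 FPKM at 6 h and 23.3 and 24.1 at 48 h. Trib3, a pseudokinase, was at 27.7 and 25.5 FPKM at 6 h and 4.63 and 5.3 at 48 h. Chac1, an enzyme that degrades glutathione, was at 10.8 and 14.7 FPKM at 6 h and 4.34 and 4.3 at 48 h. Ddit3 had not been early higher.

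Several other lists held persisting genes. Among 27 tested sterol and fatty acid synthesis genes 12 persisted and 5 rose, among them the desaturase Scd2 (4.08 and 3.89 FPKM at 6 h and 25.6 and 23.7 at 48 h), and 0 fell (2 below at an unadjusted p under 0.05 with limma). The 27 cytosolic and mitochondrial chaperone genes, the 27 genes of folding in the endoplasmic reticulum and the 35 translation factors had 10, 8 and 10 persisting members and 0 called members each by limma and the 2-fold rule. At an unadjusted p under 0.05 with no rule of size, 14 chaperone genes were above and 1 below, 8 folding genes were above and 10 below, and 11 translation factors were above and 6 below. Of 37 proteasome subunits 0 were called (24 above and 1 below at an unadjusted p under 0.05). Of 46 genes of the TCA cycle and respiratory chain 0 were called as well (30 above and 0 below), while 42 were above their 6 h value in both genotypes, with medians of 0.35 in WT and 0.39 in Zak-KO. With a pseudocount of 0.1 FPKM 1 gene of that list, Sdhd, was called.

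**Figure D3:**
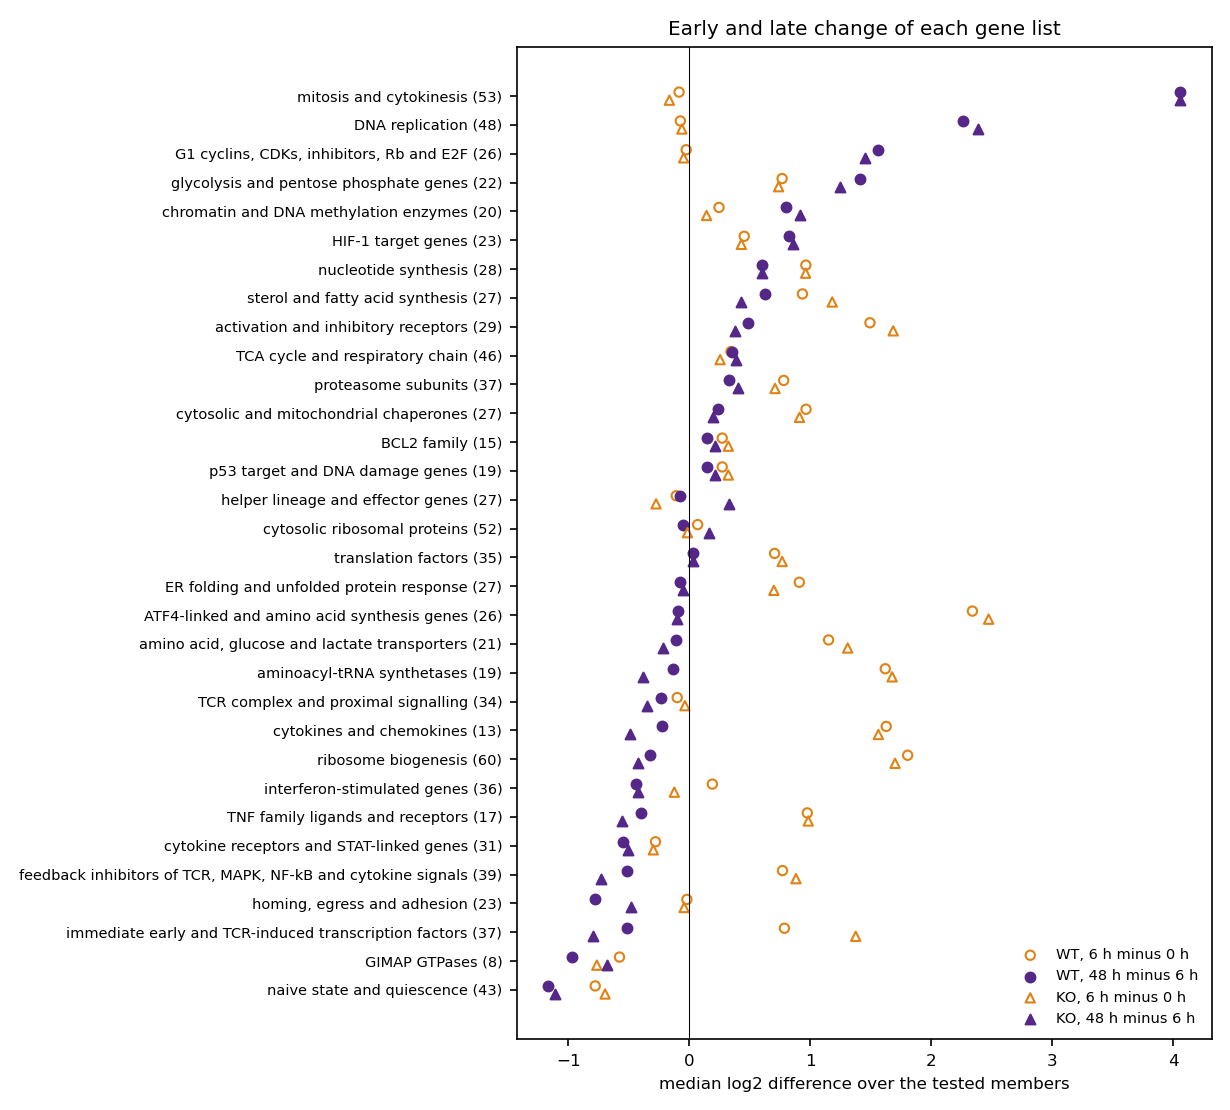
Median log2(FPKM+1) difference of each of 32 gene lists, with the number of tested members in brackets, between 0 h and 6 h (open symbols) and between 6 h and 48 h (filled symbols), in WT (circles) and Zak-KO (triangles). The mitosis and replication lists sit near 0 early and at 4.06 and 2.26 late in WT, while the ribosome biogenesis and ATF4-linked lists sit high early and just below 0 late.

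Glycolysis genes went on rising. Of 22 tested glycolysis and pentose phosphate genes 14 rose and 0 fell, and 0 were below their 6 h value at an unadjusted p under 0.05 (limma). The median was 1.41 in WT and 1.25 in Zak-KO, and 6 of the 14 had been early higher and 6 rose only late. Tpi1, triose phosphate isomerase (chromosome 6, 124810586 to 124814158, mm10), went from 8.83 and 8.58 FPKM at 0 h and 22.6 and 22.1 at 6 h to 590.1 and 620.1 at 48 h (4.70 ± 0.083). It moved farther than any other gene of the list. Gapdh, Pgk1 and Eno1 rose as well, with 223 and 198 FPKM at 6 h and 987 and 943 at 48 h for Pgk1, the phosphoglycerate kinase, but these 3 share sequence with near copies and are uncertain.

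Of 23 tested genes known as targets of the hypoxia factor HIF-1, 10 rose and 1 fell (medians 0.82 and 0.86). Slc16a3, which exports lactate, rose from 6.11 and 8.39 to 86.4 and 87.5 FPKM, Ak4, a mitochondrial adenylate kinase, from 0.94 and 0.79 to 21.2 and 20.9, and Ddit4, an inhibitor of the growth kinase mTORC1, from 18.5 and 21.5 to 71.3 and 79.3. Ndrg1 went against them, back from 50.1 and 54.4 to 12.3 and 16. The glucose transporter Slc2a3 rose from 9.24 and 10.3 to 33.4 and 32.4. Among 21 tested transporters of amino acids, glucose and lactate 5 rose (23.8%) and 1 fell (4.76%), against 8.25% and 4.51% over all genes.

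Of the 750 genes higher only late, 621 ended at least 2-fold above 0 h in both genotypes and 191 had been under 1 FPKM in all 4 earlier libraries. Cell division genes were prominent among them. In the list of 53 mitosis and cytokinesis genes 51 rose and 0 fell, with 2 below at an unadjusted p under 0.05 (limma), medians of 4.06 in WT and 4.05 in Zak-KO, and 50 that rose only late. Top2a, the topoisomerase that untangles chromosomes (chromosome 11, 98992947 to 99024199, mm10), had the largest rise among genes of mean 5 FPKM or more: 1.02 and 1.0 FPKM at 6 h and 156 and 135 at 48 h (6.19 ± 0.10, a 72.8-fold difference of FPKM+1, adjusted p = 6.08e-05 with limma and Benjamini-Hochberg adjustment). Its 0 h values were 1.28 and 1.13, so it had not yet moved by 6 h. Mki67, the proliferation antigen Ki-67, was at 0.28 and 0.33 FPKM at 6 h and 92.6 and 75.2 at 48 h. Aurkb, the kinase of the chromosomal passenger complex, was at 0.28 and 0.24 FPKM at 6 h and 71 and 62.8 at 48 h, and its partners Birc5 and Cdca8 were at 89.2 and 89.1 and at 76.2 and 74.9 at 48 h after less than 2 FPKM at 6 h.

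The entry kinase Cdk1 stood at 0.21 FPKM in WT and 0.08 in Zak-KO at 6 h and at 46.2 and 39.5 at 48 h, and its cyclin Ccna2 at 0.64 FPKM in WT and 0.62 in Zak-KO at 6 h and at 82.7 and 75.8 at 48 h. Both were thus near 0 in every library before 48 h. Ndc80, a kinetochore protein, had fallen early, from 11.7 and 13.2 FPKM at 0 h to 5.26 and 5.74, before it rose to 30.5 and 27.6. Pttg1, the inhibitor of separase, and Smc4, a condensin subunit, were the 2 members not called, at 37.2 and 28.3 FPKM at 6 h and 15.3 and 17.5 at 48 h and at 189 and 159 FPKM at 6 h and 141 and 138 at 48 h.

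DNA replication genes rose with them. Of 48 tested, 45 rose, 43 of them only late (medians 2.26 and 2.38). By limma 0 fell, and at an unadjusted p under 0.05 all 48 were above and 0 below. Uhrf1, which carries DNA methylation through replication, was at 1.73 and 1.64 FPKM at 6 h and 110.3 and 109.9 at 48 h (5.37 ± 0.092), and Chaf1a, a histone chaperone of new DNA, was at 0.80 and 0.68 FPKM at 6 h and 40.4 and 37.5 at 48 h. The helicase loader gene Cdc6 was at 0.62 and 0.34 FPKM at 6 h and 32.7 and 32.1 at 48 h. Pcna, the sliding clamp, was early higher in WT only by the 2-fold rule (95.6 to 204, and 92.5 to 168 in Zak-KO) and reached 659.5 and 682. Pcna has near-identical copies, so its values are uncertain; Cdc6 and Pcna were chosen after their values were seen.

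Upstream of replication, 15 of 26 tested genes of G1 control rose and 2 fell. Ccne1, cyclin E1, rose from 1.14 and 0.95 to 33.9 and 33.2 FPKM, the activator E2f2 from 0.85 and 0.99 to 30.5 and 30, and the repressor E2f8 from 0.04 and 0.02 to 19.4 and 18. The kinase inhibitor Cdkn1b (p27), high in resting cells, fell at both steps, from 157 and 155 at 0 h to 75.1 and 76.5 and then to 31.2 and 33.4. Its relative Cdkn1a (p21) rose at both, from 1.07 and 1.47 to 17.7 and 15.7 and then to 59 and 65.2.

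Nucleotide synthesis genes were spread over early and late classes. Of 28 tested genes 9 rose and 0 fell (2 below at an unadjusted p under 0.05 with limma), while 11 were early higher and persisted. The late ones included genes that make deoxynucleotides. The ribonucleotide reductase subunits were at 1.38 and 1.31 FPKM at 6 h and 123 and 122 at 48 h for Rrm2 and at 7.33 and 6.49 FPKM at 6 h and 103 and 99.9 at 48 h for Rrm1, and thymidine kinase Tk1 was at 0.79 and 1.84 FPKM at 6 h and 64.7 and 67.8 at 48 h. Ctps, which makes CTP, persisted at 36.4 and 36.4 FPKM at 6 h and 32.4 and 31.4 at 48 h from 5.05 and 4.95 at 0 h. Among 20 tested chromatin and DNA methylation enzymes 7 rose and 1, Kdm6b, fell. Dnmt1, the maintenance methyltransferase, was at 17.2 and 21.8 FPKM at 6 h and 112 and 105 at 48 h, and Hells, a chromatin remodeller that works with it, at 2.29 and 1.67 FPKM at 6 h and 45.6 and 40.5 at 48 h.

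Promoters of the division genes are shown because the members rose together. RefSeq start sites (GRCm38.p6, the assembly named mm10) gave 300-base windows, from 250 bases before a start to 50 after it, for 8400 of the 10347 genes; genes of 1 chromosome were not used here, and a gene with several starts had several windows. The 6 letters TTTGAA, the core of the cell cycle homology region (CHR), or their reverse complement, occurred in 31 of 44 windows of late mitosis genes (70.5%) and in 12.2% of all 10638 windows. The letters CCAAT on either strand, the box bound by NF-Y, occurred in 77.3% and 38.6%. The E2F letters TTTGGCGC, TTTCCCGC, TTTCGCGC or TTTGCCGC, on either strand, occurred in 16 of 40 windows of late replication genes (40%), in 6.82% of those of late mitosis genes and in 4.26% of all. These shares are descriptions with no test, and the mitosis and replication lists were drawn up with earlier results of these samples known. The windows of the 2 mitosis genes with the largest rise that hold the CHR letters, and of the replication gene with the largest rise that holds E2F letters, are printed 5′ to 3′ on the strand of the gene.
Top2a, chr11:99024140-99024439, minus strand, capitals mark CHR and CCAAT letters: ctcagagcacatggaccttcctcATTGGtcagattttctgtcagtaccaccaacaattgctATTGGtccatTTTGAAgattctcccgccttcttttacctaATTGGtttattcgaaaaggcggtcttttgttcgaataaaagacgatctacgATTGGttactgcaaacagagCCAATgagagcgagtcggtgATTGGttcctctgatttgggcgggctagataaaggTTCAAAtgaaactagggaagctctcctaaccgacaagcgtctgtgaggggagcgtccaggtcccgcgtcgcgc
Mki67, chr7:135716330-135716629, minus strand, capitals mark CHR and CCAAT letters: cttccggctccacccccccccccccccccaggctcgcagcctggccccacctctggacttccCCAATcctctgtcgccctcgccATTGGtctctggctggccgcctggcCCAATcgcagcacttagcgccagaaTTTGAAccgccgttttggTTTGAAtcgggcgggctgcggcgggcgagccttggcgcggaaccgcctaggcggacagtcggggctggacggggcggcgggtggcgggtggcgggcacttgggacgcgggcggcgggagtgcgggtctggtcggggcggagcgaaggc
Uhrf1, chr17:56304063-56304362, plus strand, capitals mark E2F and CCAAT letters: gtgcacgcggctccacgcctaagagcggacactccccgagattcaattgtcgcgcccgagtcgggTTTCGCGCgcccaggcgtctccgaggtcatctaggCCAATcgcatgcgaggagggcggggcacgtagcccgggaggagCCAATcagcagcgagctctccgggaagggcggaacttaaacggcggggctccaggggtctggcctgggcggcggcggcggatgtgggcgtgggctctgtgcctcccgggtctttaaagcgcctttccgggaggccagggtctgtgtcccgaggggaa

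The Top2a window held 6 CCAAT matches and 2 CHR matches, the nearer one at -23 to -18 from the start. In the Mki67 window both CHR matches, at -116 to -111 and -98 to -93, lay closer to the start than the 3 CCAAT matches. The Uhrf1 window held 1 E2F match at -185 to -178 and 2 CCAAT matches.

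Promoter letters of the early genes were counted in the same way. Among windows of genes that were early higher and persisted, 18.3% held the E-box CACGTG, which factors such as Myc bind, against 10.3% of all windows. Among windows of genes that fell back, 8 of 71 (11.3%) held the AP-1 letters TGANTCA on either strand, against 4.66%, and 7 of 71 (9.86%) held the ATF4 letters TGATGNAA, against 2.29%. The 71 windows belong to 52 genes. These letters were picked from a longer set searched in every class, of which others lay nearer to or below all windows. Among fell-back windows 12.7% held an NF-kB site, against 10.3%, and 5.63% the E-box, against 10.3%. The EGR letters GCGNGGGCG were in 11.3% of fell-back and 7.05% of persisting windows, against 10.4%. The persisting gene with the largest early rise among those with an E-box and the gene with the largest fall back among those with ATF4 letters are shown likewise.
Egr2, chr10:67535249-67535548, plus strand, capitals mark the E-box: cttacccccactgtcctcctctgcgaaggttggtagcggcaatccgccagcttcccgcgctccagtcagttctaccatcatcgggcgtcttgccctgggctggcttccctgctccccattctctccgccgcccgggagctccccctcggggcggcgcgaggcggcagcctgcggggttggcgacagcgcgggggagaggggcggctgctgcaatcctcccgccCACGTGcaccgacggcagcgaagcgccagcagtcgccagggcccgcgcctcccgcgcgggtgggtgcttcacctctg
Atf3, chr1:191183284-191183583, minus strand, capitals mark the ATF4 letters: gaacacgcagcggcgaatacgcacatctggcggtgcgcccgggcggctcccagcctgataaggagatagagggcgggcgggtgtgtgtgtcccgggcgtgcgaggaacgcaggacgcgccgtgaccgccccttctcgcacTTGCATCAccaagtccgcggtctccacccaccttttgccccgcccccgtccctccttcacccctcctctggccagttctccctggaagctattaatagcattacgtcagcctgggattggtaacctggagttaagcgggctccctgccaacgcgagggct

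The Egr2 E-box lay at -27 to -22 and the Atf3 match at -110 to -103. Counts of 8 and 7 windows are small, and no binding was measured.

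Genes of the naive state continued to fall. Of 43 tested naive and quiescence genes 23 fell and 2 rose, with medians of -1.17 in WT and -1.11 in Zak-KO. The list was drawn up with earlier results of these samples known, so its direction is no independent evidence. Further falls came from the lists of cytokine receptors and of homing genes. Il7r, the receptor for the survival cytokine IL-7 (chromosome 15, 9506159 to 9529941, mm10), had the largest fall among genes of mean 5 FPKM or more, standing at 264 FPKM in WT and 235 in Zak-KO at 6 h and at 4.11 and 5.19 at 48 h, from 525 and 556 at 0 h (-5.47 ± 0.13, adjusted p = 6.81e-05 with limma and Benjamini-Hochberg adjustment). The fall was 44.5-fold on the FPKM+1 scale. S1pr1, of the homing list, the receptor for the lipid that draws T cells out of lymph nodes, stood at 172 FPKM in WT and 158 in Zak-KO at 6 h and at 13.2 and 14.1 at 48 h, from 364 and 383 at 0 h.

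Members of the naive list itself fell at both steps. Rflnb, an actin regulator, went from 218 and 221 FPKM at 0 h through 84.4 and 82.3 to 4.46 and 5.35, and the sialyltransferase gene St8sia6 from 70.9 and 82.1 through 26.9 and 30.1 to 4.74 and 4.68. In a further group the early step passed 2-fold in 1 genotype only. Pik3ip1, an inhibitor of PI3 kinase, went from 177 and 197 through 87.8 and 98 to 10.6 and 14. Vps37b, an ESCRT subunit, went from 564 and 678 through 268 and 351 to 18.6 and 19.5. Klf2, which drives S1pr1, fell 2-fold only late (174 and 187 FPKM at 6 h and 31.3 and 45.5 at 48 h), and so did Tcf7, a factor of naive and memory T cells (580.1 and 607 FPKM at 6 h and 202 and 217 at 48 h). Klf2 and Tcf7 were chosen after their values were seen. Id3 and Igfbp4 were the 2 members of the naive list that rose, the latter from 6.81 and 6.72 to 59.1 and 47.7.

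Only 53 genes had been early lower, and 30 of these fell by a further 2-fold or more, 17 persisted and 3 recovered. Txnip, an inhibitor of glucose uptake, was among those that persisted (84.8 and 75 FPKM at 6 h and 44.9 and 46 at 48 h, from 182 and 175 at 0 h). The recovered ones were Ndc80, the zinc-finger gene Zfp467 (1.89 and 1.56 FPKM at 6 h and 16.2 and 16.1 at 48 h) and Stmn1, a regulator of microtubules with near-identical copies and an uncertain value (55.3 and 49.6 FPKM at 6 h and 679 and 716 at 48 h). The remaining 3 did not do the same in both genotypes. The count depended on the scaling: 60 fell further when each library was set to a common sum and 59 after upper quartile scaling.

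Of 31 tested genes listed as receptors and signal carriers for cytokines 7 fell (22.6%) and 2 rose (6.45%), against 4.51% and 8.25% over all genes. The list also held Bcl2, Bcl6 and Osm, which are neither, and Bcl6 was among the 7. Ifngr1, the ligand-binding chain of the interferon-gamma receptor, was at 237 and 225 FPKM at 6 h and 33.3 and 33.5 at 48 h, from 445 and 514 at 0 h, and Tgfbr2, the TGF-beta receptor, was at 62.7 and 72.5 FPKM at 6 h and 19.7 and 20.2 at 48 h. Stat5b, which carries IL-2 and IL-7 signals, was at 87.6 and 110.4 FPKM at 6 h and 29.3 and 29.1 at 48 h. Jak3, the kinase of the common gamma chain, rose to 46.4 and 47.9 from 13.8 and 18.5. Among 34 tested genes of the TCR complex and its proximal signals 6 fell and 0 rose by the limma rule, with 6 above at an unadjusted p under 0.05. Cd247, the zeta chain, fell from 259 and 210.3 to 89.8 and 96, and Grap2, an adaptor, from 71.7 and 80.5 to 31.9 and 27. Cd247 was chosen after its values were seen.

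Of the 23 tested homing and adhesion genes 4 fell (17.4%) and 1 rose (4.35%), against 4.51% and 8.25% over all genes. Ccr4, a receptor for skin and tissue chemokines, rose from 6.24 and 7.8 to 22.6 and 23.3 FPKM, and Cxcr3, a receptor for interferon-induced chemokines, fell from 4.02 and 3.74 to 0.38 and 0.19.

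Of the 296 genes lower only late, 25 ended within 2-fold of 0 h in both genotypes and 0 ended 2-fold above it in both. They were led by Ramp3, a partner of calcitonin-family receptors. It was at 74.2 and 75.5 FPKM at 6 h and 2.86 and 4.1 at 48 h after 53.3 and 62.5 at 0 h (-4.10 ± 0.12). Lrrc32, which holds latent TGF-beta on the cell surface, was at 25.4 and 31 FPKM at 6 h and 3.04 and 3.43 at 48 h, and Mylip, a ubiquitin ligase that degrades the LDL receptor, was at 28.3 and 29.8 FPKM at 6 h and 3.1 and 3.7 at 48 h. Irf7, a factor of the interferon response, was at 12.2 and 10.5 FPKM at 6 h and 0.98 and 1.02 at 48 h. In the list of 36 tested interferon-stimulated genes 4 fell (11.1%) and 3 rose (8.33%, against 8.25% over all genes), the rises being Isg20, Gbp2 and Gbp5, with Gbp2, a guanylate-binding protein, at 24.1 and 14.4 FPKM at 6 h and 108 and 65.9 at 48 h. Of 8 tested GIMAP genes, GTPases of lymphocyte survival, 3 fell and 0 rose (1 above at an unadjusted p under 0.05 with limma), with Gimap3 at 753 and 728 FPKM at 6 h and 298 and 298 at 48 h.

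**Figure D4:**
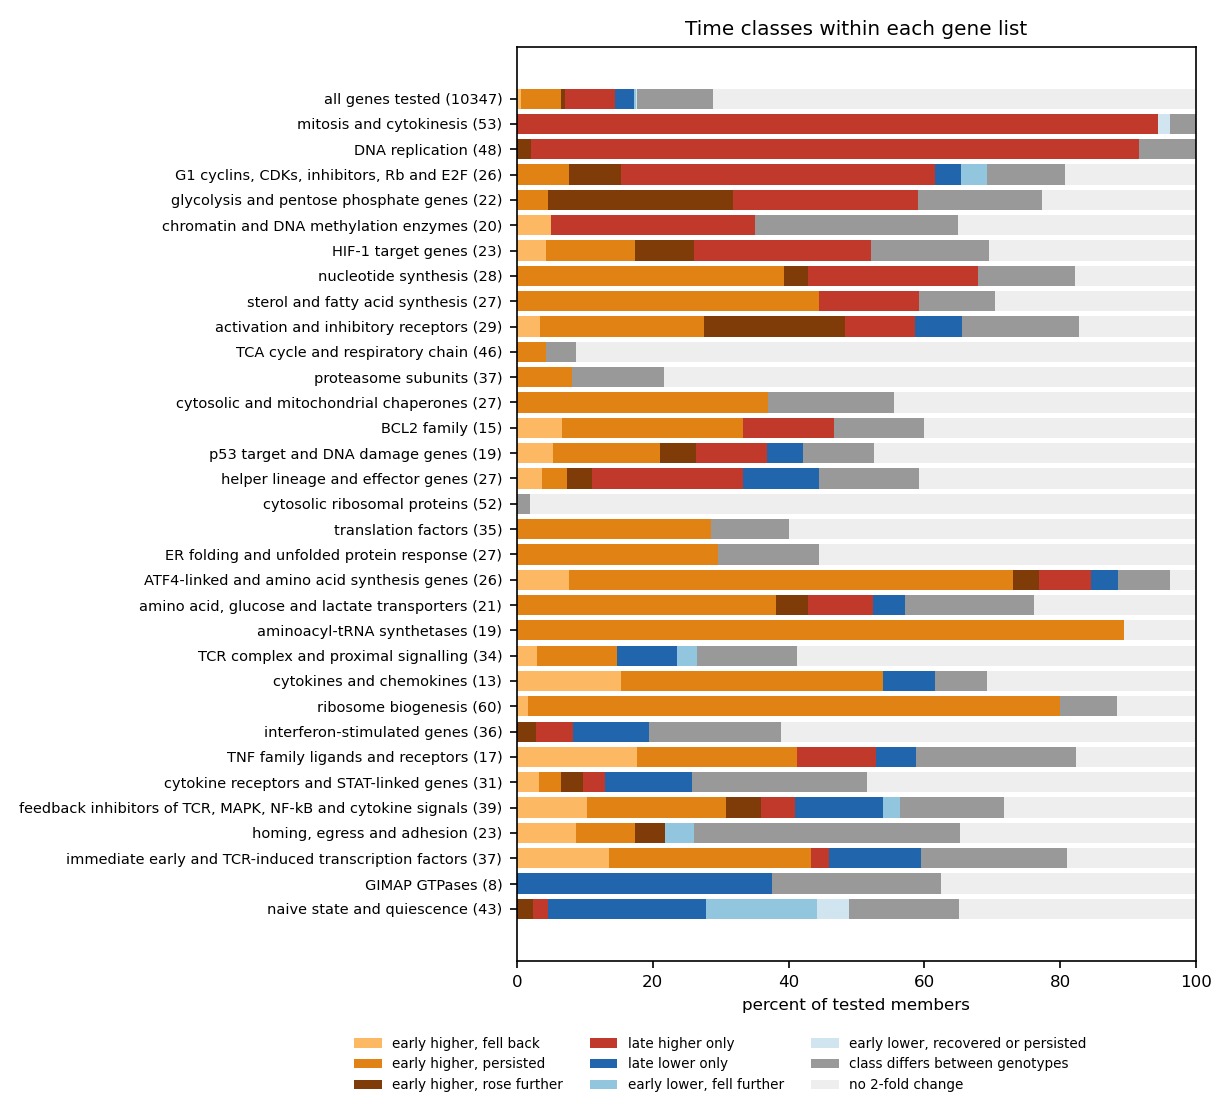
Share of the tested members of each gene list in each time class, in percent, with all 10347 genes at the top and the number of tested members in brackets; grey bars mark genes that the 2 genotypes put in different classes. Late higher genes fill 94.3% of the mitosis list and persisting early genes 78.3% of the ribosome biogenesis list.

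Of 15 tested genes of the BCL2 family, which control cell death, 2 rose (13.3%) and 1 fell (6.67%), and of 19 p53 target genes 4 rose (21.1%) and 2 fell (10.5%), against 8.25% and 4.51% over all genes. Bcl2 persisted at 20.8 and 21.2 FPKM at 6 h and 20.7 and 19.3 at 48 h after 9.27 and 7.72 at 0 h, and Pmaip1, which encodes the killer protein NOXA, rose from 1.39 and 1.7 to 5.57 and 5.67.

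Not every gene moved alike in the 2 genotypes. The classes of 1152 genes (11.1%) differed between WT and Zak-KO, and 114 of these genes were called between 6 h and 48 h. The responses of 299 genes lay 2-fold or more apart. In 240 of these the Zak-KO difference was the more positive and in 59 the WT difference. Among genes averaging at least 5 FPKM, 102 responses lay 2-fold apart. In 21 genes the 2 pairs moved 2-fold in opposite directions. Among them were Il11, a cytokine (11.2 and 11.1 FPKM at 6 h, 2.22 and 92.7 at 48 h), and Smco1 (17.0 and 19.6, then 5.39 and 102). At 0 h both were already higher in Zak-KO, at 11.3 and 24.6 FPKM for Il11 and 21.7 and 42 for Smco1. The 48 h Zak-KO library also had the fewest genes at 0, and the part of that library in these differences was not tested.

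Markers of other cells were followed beside these changes, as sums of FPKM. The 8 T cell markers summed to between 2089 and 2294 in all 6 libraries, the 8 B cell markers to between 3.70 and 8.83, and the 6 NK cell markers to 4.07 and 4.36 at 6 h and 2.24 and 2.50 at 48 h. The 9 myeloid markers went from 6.95 in WT and 4.82 in Zak-KO at 6 h to 1.01 and 2.43, with 7 of the 9 at 0 in WT at 48 h. The 9 dendritic cell markers went from 21.1 and 23.6 to 56.2 and 66.1, through Cd74 (9.9 and 12.6 FPKM at 6 h and 40.5 and 45.5 at 48 h) and H2-Ab1 (2.99 and 3.26 FPKM at 6 h and 12.3 and 13.3 at 48 h), which serve MHC class II presentation, while H2-Aa, of the same complex, was at 5.29 and 5.9 FPKM at 6 h and 2.24 and 3.83 at 48 h. Whether other cells had a part in any of these changes was not tested.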

How the data were processed

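RNA of sorted naive CD4+ T cells was sequenced in 6 libraries, 1 per genotype and time. The deposited table holds FPKM per gene; the authors used Bowtie, RSEM and the mm10 build, per the submitters' processing notes (tool versions: not given in the sources used here). These deposited FPKM carry no read counts, so depth is unknown and no counting interval or count test was made. RSEM assigns fragments that fit several genes, so genes of which more than 20% of 50-base windows of the longest GENCODE transcript occur in another gene (747 of those tested) are named as uncertain. The 18446 gene identifiers were matched to symbols in a RefSeq table (18326 matched).

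Here, log2(FPKM+1) of genes with a mean of at least 1 FPKM was fitted with limma 3.58.1 in R 4.3.3 (trended empirical Bayes) in the 4 libraries of 6 h and 48 h, with time and genotype as terms and 1 residual degree of freedom; p-values were adjusted by Benjamini and Hochberg over all 10347 genes. A call needed an adjusted p under 0.05 and a 2-fold difference of the same sign in both genotypes. With 1 library per group, replicate numbers pair nothing beyond the genotype. Named genes were the 12 with the largest change each way and 8 per class, among genes of mean 5 FPKM or more, up to 3 each way per list, and further members of the factor, cytokine and receptor lists. The members and the 32 gene lists were chosen with earlier results of these data known. Alternatives were other pseudocounts, filters, scalings, fold thresholds, fits, and each library left out. Python 3.11.15, numpy 2.4.6, pandas 2.3.3 and matplotlib 3.10.9 served for counts and plots.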

Additional observations from a re-analysis of the deposited data

Results flagged for a closer look

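In 21 genes the 2 genotypes moved in opposite directions between 6 h and 48 h, by 2-fold or more in each, and 20 of them were the higher in the 48 h Zak-KO library. With 1 library per group the differences were not tested. The value given for each is the Zak-KO change minus the WT change on the log2(FPKM+1) scale, among genes that averaged at least 5 FPKM. Il11, a cytokine of the IL-6 family, had 4.87. Its FPKM at 0, 6 and 48 h was 11.3, 11.2 and 2.22 in WT and 24.6, 11.1 and 92.7 in Zak-KO. Zfp457, a zinc-finger gene, had 3.84 (8.51, 11 and 3.05 in WT and 26.2, 8.65 and 45.6 in Zak-KO). Smco1, a membrane protein gene, had 3.82 (21.7, 17.0 and 5.39, and 42, 19.6 and 102). Each was thus already higher in Zak-KO at 0 h and was lower there at 6 h than at 0 h. Smaller differences of the same sign between the 2 changes were found in Nkain3 (3.35), Gje1 (3.06), Usp17la (2.78), Grk1 (2.73), Veph1 (2.63), Slc18b1 (2.46) and Gjc3 (2.15). A predicted gene, Gm7609, had 2.73 and a gene without a symbol 2.49. Of the sequence windows of Gm7609, 53.7% occur in another gene, so its value is uncertain, and the gene without a symbol could not be checked for this. Mup19 went the other way, with -3.81 (5.93 to 12.9 in WT and 5.97 to 0 in Zak-KO), and all of its sequence windows occur in another gene, so its value is uncertain.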

How the results depend on the processing

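The counts of higher (854), lower (467), early genes that fell back (66), persisted (611) or rose further (62), late higher (750), late lower (296), early lower genes that recovered (3), persisted (17) or fell further (30), and genes whose pairs lay 2-fold apart (299) were recomputed under each alternative, and no direction reversed. A pseudocount of 5 FPKM gave 512 higher, 243 lower, 32, 33, 468 and 158 for fell back, rose further, late higher and late lower, 1, 3 and 13 for the early lower classes, and 93 apart. A pseudocount of 0.1 FPKM gave 118 that rose further and 15, 36 and 47 for the early lower classes. With no filter 300 were lower, and with a mean of 5 FPKM or more 566 were higher, 469 late higher and 102 apart. A common sum gave 37 early lower that persisted and 60 that fell further, and upper quartile scaling 5, 39 and 59. The 1.5-fold rule gave 1563 higher, 1225 lower, 207 fell back, 226 rose further, 514 late lower, 74, 334 and 321 early lower, and 654 apart. The 4-fold rule gave 311 higher, 57 lower, 7 fell back, 204 persisted, 2 rose further, 308 late higher, 49 late lower, 0 in each early lower class, and 72 apart. Taking the early change from WT and the late one from Zak-KO gave 100 fell back, 506 late lower, and 7, 65 and 72 early lower, and the reverse 94 rose further, 474 late lower, and 72 and 81 early lower. Leaving out each library in turn, with 2-fold read in the remaining pair, gave 960 to 1121 higher and 602 to 677 lower. The fit without the replicate block, with no genotype term, gave 854 and 467. Leaving out genes that share sequence, chosen after seeing the data, gave 775 and 430. Of 315 named genes, 21 lost their call with a pseudocount of 5 FPKM, 23 without the filter and 3 after median ratio scaling. The cause of these differences was not tested. FPKM hold no depth, so the precision of low genes is unknown.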
